A study of Mus musculus with 64 samples.

Results

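Klf2, Klf4 and Klf5 encode zinc-finger transcription factors of the Krüppel-like family, and their loci were examined for binding of SOX2 and of the proteins that carry the WNT signal to DNA. Peaks were taken by position alone. A peak belonged to a gene when its summit lay in the gene body or within 70 kb on either side. This gave 3330 of the 12175735 peaks in 60 ChIP-seq peak lists, of which 1027 lay around Klf2, 956 around Klf4 and 1347 around Klf5. On mm10 (GRCm38) with GENCODE gene models, Klf2 (ENSMUSG00000055148.7) covers chr8:72319033-72321656 on the plus strand, Klf4 (ENSMUSG00000003032.8) covers chr4:55527143-55532466 on the minus strand and Klf5 (ENSMUSG00000005148.8) covers chr14:99298691-99315036 on the plus strand.

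In mouse embryonic stem cells the 3 factors are known as overlapping parts of the network that keeps cells in the naive pluripotent state, and the loss of a single factor is partly covered by the others. Klf4 is a classical reprogramming factor and a target of LIF and STAT3 signalling, Klf2 is held up by inhibition of MEK, and Klf5 is also used in trophectoderm and gut epithelium. β-catenin enters the nucleus when GSK3 is inhibited and reaches DNA through the HMG-box proteins LEF1, TCF7L1 and TCF7L2, of which TCF7L1 is best known as a repressor of pluripotency genes. SOX2 is itself an HMG-box protein, which acts with OCT4 in naive cells.

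The libraries covered SOX2, β-catenin, LEF1, TCF7L1 and TCF7L2, where the labels write TCF3 for TCF7L1 and TCF4 for TCF7L2. Each target was assayed in 4 conditions with 3 independent biological replicates. Naive ESC were wild-type cells of the XY HM1 TetON line in 2i medium, which holds the GSK3 inhibitor CHIR99021 and the MEK inhibitor PD0325901. CEpiLC, caudal epiblast-like cells, were the same wild-type cells after 72 h of differentiation with bFGF, the WNT secretion blocker LGK974 and then CHIR99021. SOX2-ON and SOX2-OFF cells were SOX2-TetON cells, which lack their own Sox2 and carry a doxycycline-driven Sox2 transgene in the Hprt locus. They were cultured for 72 h in the same differentiation medium, SOX2-ON with doxycycline kept at 1 µg/ml and SOX2-OFF with doxycycline withdrawn. All groups had therefore been given CHIR99021. Naive ESC and SOX2-ON are called high SOX2 here, and CEpiLC and SOX2-OFF low SOX2. The wild-type pair also differs in medium and cell state, the TetON line was derived from a picked clone, and SOX2-OFF cells may keep some SOX2 protein from before withdrawal.

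The lists held 1628 to 991719 peaks, and read depth is unknown. Of the 10 lists with fewer than 20000 peaks, 9 came from low SOX2 and 1 from high SOX2. To compare libraries, only the 20000 peaks with the highest deposited fold were kept in each list (all of a shorter list), and these are called strong peaks. The lowest fold of a strong peak differed between lists, from 1.27 to 9.89, so the same fold can be strong in 1 library and not in another. The strong peaks numbered 564 in the 3 windows, of which 5 had their summit in a coding exon of the 3 genes. As a check of the labelled states, strong SOX2 peaks around 8 naive marker genes such as Nanog and Zfp42 summed to 49, 53 and 65 in the naive ESC libraries and to 34, 31 and 39 in CEpiLC. In the TetON pair the sums overlapped, with 26, 31 and 29 in SOX2-ON and 22, 24 and 30 in SOX2-OFF. Around 8 caudal marker genes such as T and Cdx2 the sums were 22, 22 and 15 in naive ESC and 70, 52 and 65 in CEpiLC, and in the TetON pair they overlapped, with 32, 25 and 26 in SOX2-ON and 40, 29 and 56 in SOX2-OFF. These sums concern binding and not expression.

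Summits of strong peaks from all 60 libraries that lay at most 250 bp apart were joined into sites. The 3 windows held 150 sites, 43 around Klf2, 32 around Klf4 and 75 around Klf5, and 104 of them came from a single library. The 27 sites found in at least 4 libraries all lay outside genes but 1, and each is named here by its distance from the start of the gene. Around Klf2 the leading site was 2.8 kb upstream, with a strong peak in 38 of 60 libraries. Around Klf4 it was the promoter, at −124 bp from the start, with 41 libraries. Around Klf5 it lay 41.5 kb downstream of the start, with 46 libraries. The promoter site of Klf2, at −208 bp, was found in 5 libraries only.

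**Figure D1:**
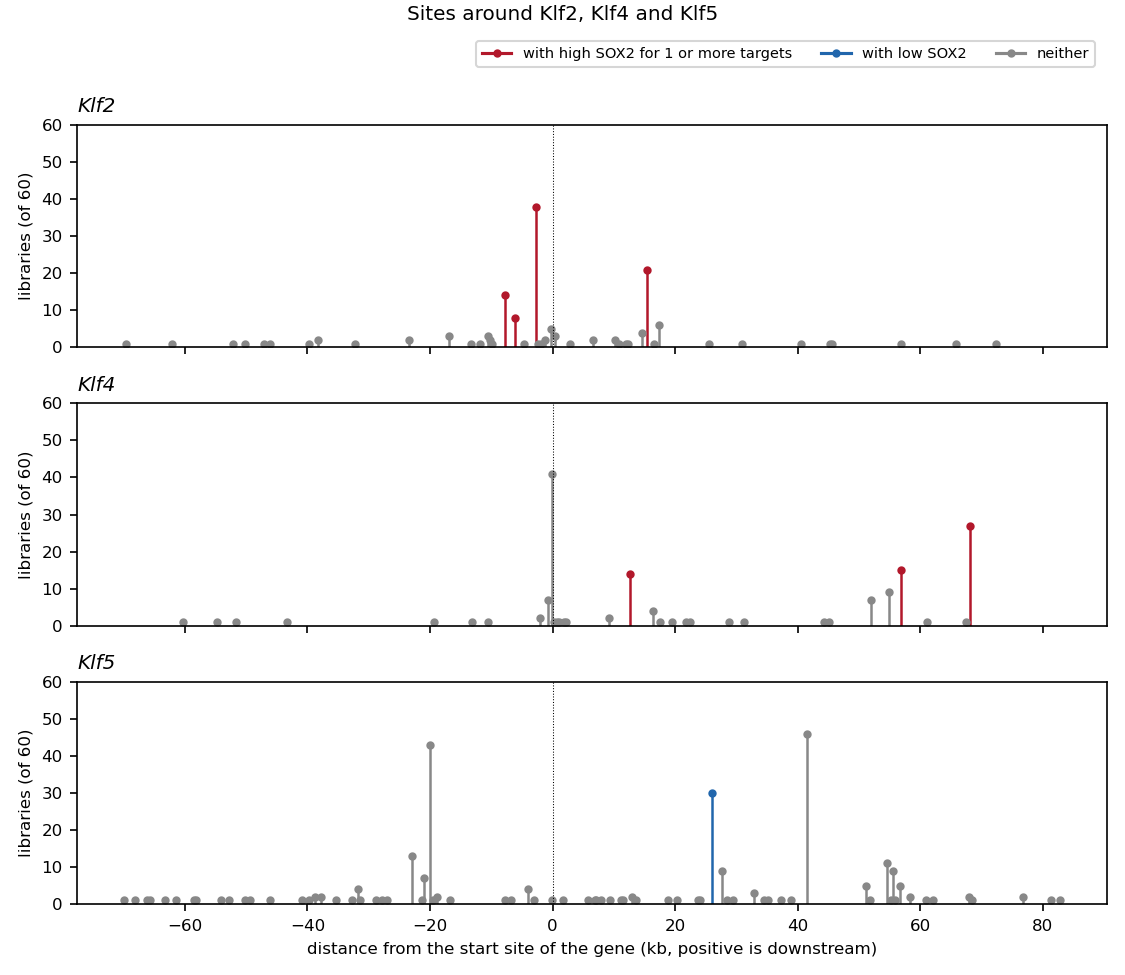
Sites around the 3 genes by distance from the gene's start in kb (x axis) and number of the 60 libraries with a strong peak (y axis). Red marks sites with high SOX2 for at least 1 target, blue marks the site with low SOX2 (for LEF1) and grey marks the others. The Klf2 and Klf4 windows hold 4 and 3 red sites, and the Klf5 window holds none.

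A site was counted as going with high SOX2 for a target when that target had a strong peak in at least 5 of the 6 high SOX2 libraries and at most 1 of the 6 low SOX2 libraries, and as going with low SOX2 in the reverse case. The sequences of 8 sites are given first, since the results turn on them: the leading site of each window and the next sites that met this rule. Each is the 200 bp around the median summit on the plus strand of GRCm38. Capitals mark matches on either strand to the SOX words CATTGT and CTTTGT, the TCF words CTTTGAA and CTTTGAT, and the octamer ATGCAAAT. Words for ESRRB (AAGGTCA), STAT (TTCCNGGAA) and KLF (GGGTGTGG, GGGCGTGG) were searched too and had no match at the 12 named sites.

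The 3 Klf2 sites are at chr8:72316150-72316349, chr8:72334354-72334553 and chr8:72311161-72311360, all intergenic.
Klf2 −2.8 kb: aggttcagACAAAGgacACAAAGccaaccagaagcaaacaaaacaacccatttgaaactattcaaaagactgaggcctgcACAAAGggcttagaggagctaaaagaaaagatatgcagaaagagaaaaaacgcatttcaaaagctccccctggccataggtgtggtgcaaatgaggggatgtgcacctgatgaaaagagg
Klf2 +15.4 kb: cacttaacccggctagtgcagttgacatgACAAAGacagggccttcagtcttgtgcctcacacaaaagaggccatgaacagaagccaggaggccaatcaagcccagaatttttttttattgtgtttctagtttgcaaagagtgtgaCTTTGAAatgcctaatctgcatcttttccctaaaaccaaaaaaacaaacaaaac
Klf2 −7.8 kb: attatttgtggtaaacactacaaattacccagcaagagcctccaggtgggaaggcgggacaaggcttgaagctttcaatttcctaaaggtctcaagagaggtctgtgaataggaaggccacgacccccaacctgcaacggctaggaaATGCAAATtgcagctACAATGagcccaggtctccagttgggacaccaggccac

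The 3 Klf4 sites are the promoter at chr4:55532490-55532689, a site in an intron of the long noncoding RNA gene Gm12510 at chr4:55464337-55464536, and an intergenic site at chr4:55475533-55475732.
Klf4 −0.1 kb: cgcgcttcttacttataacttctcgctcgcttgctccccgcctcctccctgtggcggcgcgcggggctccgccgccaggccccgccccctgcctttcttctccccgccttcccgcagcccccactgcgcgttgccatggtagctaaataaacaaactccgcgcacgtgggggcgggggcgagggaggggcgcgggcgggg
Klf4 +68.0 kb: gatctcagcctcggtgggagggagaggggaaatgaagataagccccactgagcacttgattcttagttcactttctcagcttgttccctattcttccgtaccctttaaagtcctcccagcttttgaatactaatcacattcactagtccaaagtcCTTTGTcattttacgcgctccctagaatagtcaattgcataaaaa
Klf4 +56.8 kb: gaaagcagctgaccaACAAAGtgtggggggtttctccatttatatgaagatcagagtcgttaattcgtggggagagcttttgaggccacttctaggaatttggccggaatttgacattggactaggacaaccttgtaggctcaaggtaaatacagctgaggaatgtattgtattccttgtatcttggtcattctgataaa

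The Klf5 sites at chr14:99340129-99340328 and chr14:99324556-99324755 are intergenic.
Klf5 +41.5 kb: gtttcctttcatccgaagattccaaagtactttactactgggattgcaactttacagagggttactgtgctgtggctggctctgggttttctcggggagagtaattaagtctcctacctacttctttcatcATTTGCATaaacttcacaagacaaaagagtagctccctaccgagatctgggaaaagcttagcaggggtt
Klf5 +26.0 kb: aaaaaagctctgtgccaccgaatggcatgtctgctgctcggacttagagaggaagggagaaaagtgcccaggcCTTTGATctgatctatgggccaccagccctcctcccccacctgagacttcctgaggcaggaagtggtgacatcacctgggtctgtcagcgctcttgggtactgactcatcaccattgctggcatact

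Of the 12 named sites, 8 held a SOX word, 4 a TCF word and 3 the octamer. In the central 100 bp the counts were 4, 3 and 1. Among all 583315 sites in the genome, a SOX word was found in the 200 bp in 30.2%, a TCF word in 11.7% and the octamer in 1.65%. In the central 100 bp the shares were 17.1%, 6.76% and 0.85%. Among the 43077 sites found in at least 4 libraries, the shares were 45.9%, 29.5% and 3.87% in the 200 bp and 31.8%, 22.2% and 2.49% in the central 100 bp. The Klf2 site at −2.8 kb held 3 SOX words and none of the TCF words. At the Klf2 site at −7.8 kb the octamer began at base 148 of the printed stretch and a SOX word at base 163. The Klf4 site at +12.6 kb, not printed, held the octamer and 2 SOX words. The GC-rich Klf4 promoter held none of the words. A match is a run of letters and not a measured binding site.

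The Klf2 and Klf4 windows held all 7 sites that went with high SOX2, and the single site that went with low SOX2 lay in the Klf5 window. For SOX2 itself 3 sites went with high SOX2, of 8 in the windows with enough SOX2 libraries (at least 5 of 12) to meet the rule. Over the genome 13.1% of such sites met it, or 1.09% of all sites with any strong SOX2 peak. For β-catenin 4 of 9 sites met the rule, against 14.5% of such sites over the genome and 1.11% of all sites with a β-catenin peak. For TCF7L1 5 of 11 sites met it, against 29.5% and 1.62%. LEF1 had 4 sites with enough libraries, of which 1 went with high SOX2 (3.39% and 0.047% over the genome) and 1 with low SOX2 (19.5% and 0.271%). No site went with low SOX2 for SOX2, β-catenin, TCF7L1 or TCF7L2, and none with high SOX2 for TCF7L2. These counts depend on the lists. With every list shortened to match the shortest of its target, 3 SOX2 sites, 1 β-catenin site and 2 TCF7L1 sites went with high SOX2. The SOX2 count could not change here, since every SOX2 list held at least 29298 peaks and was already cut at 20000. Without replicate 3, with all 4 high SOX2 libraries and no low one required, the counts were 1, 2 and 1, and without replicate 2 they were 2, 3 and 1. The LEF1 site with low SOX2 did not meet the matching rule when any single replicate was left out, and that with high SOX2 did not without replicate 2 or replicate 3. With all deposited peaks, or without replicate 1, LEF1 had 2 sites with high SOX2 and TCF7L2 had 1.

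**Figure D2:**
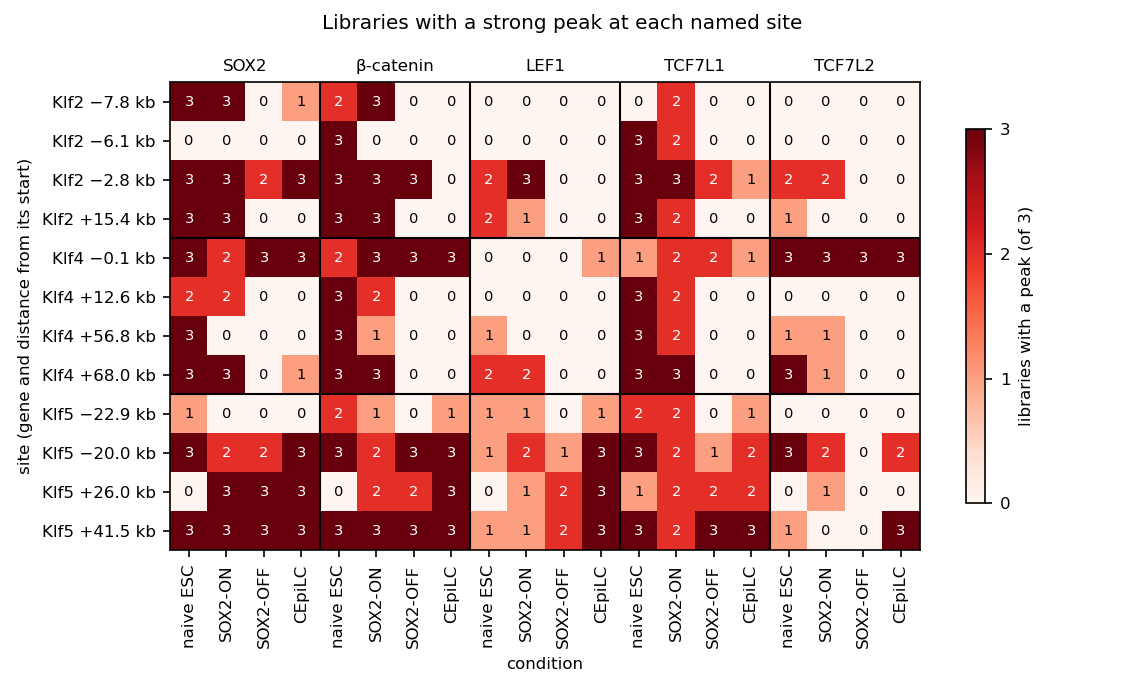
Number of libraries, of 3 per group, with a strong peak of each target (column blocks) in each condition (columns) at the 12 named sites (rows, gene and distance from its start). Around Klf2 and Klf4 the distal sites are filled mostly in naive ESC and SOX2-ON, with the exception of Klf2 −2.8 kb. There SOX2 is filled in every condition, β-catenin also in 3 SOX2-OFF libraries and TCF7L1 also in 2 SOX2-OFF libraries and 1 CEpiLC library. For SOX2 and β-catenin the Klf4 promoter and the Klf5 sites at −20.0 and +41.5 kb are filled in 2 or 3 libraries of every condition and the Klf5 site at +26.0 kb is at 0 for SOX2 and β-catenin in naive ESC.

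The Klf2 site at −2.8 kb held one of the strongest SOX2 peaks of high SOX2 cells. Its SOX2 peak had a deposited fold (signal over local background, from the peak caller) of 41.3, 65.4 and 81.7 in the 3 naive ESC libraries and of 35.3, 46.5 and 42.8 in SOX2-ON. In SOX2-OFF the folds were 9.02, 11 and 5.95, and in CEpiLC 6.96, 5.97 and 8.22. All 6 high SOX2 values lay above all 6 low ones, although a SOX2 peak remained in every library. The share of all sites with such a separation of folds was not computed, here or for the sites below. In naive ESC this peak ranked at places 127, 20 and 2 of its lists by fold. Folds were not normalised between libraries, so these values describe each library, and a smaller share of cells with the bound site cannot be told apart from weaker binding per cell.

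β-catenin followed the same order at that site. It had folds of 42.2, 31.2 and 63.7 in naive ESC, 27.7, 24.8 and 26.4 in SOX2-ON and 11, 6.54 and 5.06 in SOX2-OFF. No full CEpiLC list had a β-catenin peak there, and these lists were short, with 20453, 15201 and 10930 peaks. TCF7L1 had folds of 75.5, 44.5 and 146.3 in naive ESC and 8.77, 53.1 and 86.7 in SOX2-ON. In SOX2-OFF they were 3.73, 9.75 and 10.5, and the CEpiLC libraries had no peak in replicate 1, 5.04 in replicate 2 and 5.29 in replicate 3. The TCF7L1 groups overlapped between SOX2-ON and SOX2-OFF, where the lowest SOX2-ON value, 8.77 in replicate 1, lay below 2 SOX2-OFF values. LEF1, which is usually induced by WNT signalling, had a peak in 2 of 3 naive ESC and 3 of 3 SOX2-ON libraries, with folds of 15.9, 30.1 and 18.7 in SOX2-ON, and in none of the full SOX2-OFF and CEpiLC lists. This was the LEF1 site that went with high SOX2. The LEF1 lists held 4443, 16518 and 20451 peaks in CEpiLC and 403114, 17493 and 326376 in SOX2-OFF. Those of high SOX2 held 117834 to 991719. The summits of all 38 peaks fell within 90 bp, and the median summits of the 5 targets lay between −19 and 8 bp from the site's median.

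The downstream Klf2 site at +15.4 kb was nearly empty at low SOX2. SOX2 had folds of 60.1, 71.9 and 54.2 in naive ESC and 8.15, 15.7 and 11 in SOX2-ON, and its peak ranked at places 15, 12 and 41 of the naive ESC lists. In the full lists 1 SOX2-OFF library had a peak of fold 3.06 and 1 CEpiLC library a peak of fold 4.88. β-catenin had folds of 49.2, 43.3 and 58.2 in naive ESC and 9.11, 7.99 and 12.5 in SOX2-ON, and no peak in the 6 low SOX2 lists at any strength. Those lists held 415244, 3423 and 32581 peaks in SOX2-OFF and 20453, 15201 and 10930 in CEpiLC. The high SOX2 lists of β-catenin held 39154 to 461476. TCF7L1 had folds of 67.1, 68.9 and 156.6 in naive ESC, none in SOX2-ON replicate 1 and 31.5 and 28.8 in the other SOX2-ON libraries, and no peak in low SOX2. For SOX2 and β-catenin the naive ESC values lay above all SOX2-ON values, and how common this is among all sites was not computed.

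The upstream Klf2 sites differed by target in their strong peaks. At −7.8 kb SOX2 was found in all 6 high SOX2 libraries, with folds of 11.9, 8.51 and 15.1 in naive ESC and 12.5, 13.9 and 24.6 in SOX2-ON, and as a strong peak in 1 low SOX2 library (CEpiLC, 6.38). β-catenin was found there in 5 of 6 high SOX2 libraries and no low one. TCF7L1 had a strong peak there in 2 SOX2-ON libraries, and a peak in 3 of 3 full naive ESC lists. At −6.1 kb strong SOX2 peaks were absent in all 12 libraries, although 2 of 3 full naive ESC lists had a SOX2 peak. TCF7L1 had folds of 19.3, 19.2 and 46 in naive ESC and β-catenin 13.4, 10.2 and 16. In the 200 bp around that site the TCF word CTTTGAT began at base 81 and a SOX word at base 101, close to the median summit.

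Klf4 had a promoter site found in all conditions and distal sites that went with high SOX2. TCF7L2 had a strong peak at the promoter in all 12 libraries, with folds of 12.9, 14.4 and 15.2 in naive ESC, 11.1, 13.4 and 22.6 in SOX2-ON, 12.3, 18.6 and 15.3 in SOX2-OFF and 21.3, 28.9 and 25.4 in CEpiLC. β-catenin and SOX2 each had one in 11 of 12. LEF1 was found at the promoter in 1 of 12 libraries. SOX2 and β-catenin overlapped between conditions. The TCF7L2 peaks of the CEpiLC libraries overlapped in fold with SOX2-ON, whose replicate 3 reached 22.6.

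The Klf4 site at +68.0 kb had strong peaks in 27 libraries, more than the other distal sites of that window. SOX2 had folds of 27.2, 21.6 and 16.2 in naive ESC and 21.8, 27.6 and 24.4 in SOX2-ON, which overlap. In the full lists it had 6.6 and 3.84 in 2 SOX2-OFF libraries and 5.33 and 5.47 in 2 CEpiLC libraries, with no peak in the third of each. β-catenin had folds of 49.5, 21.7 and 50.7 in naive ESC and 23.1, 20.8 and 28.4 in SOX2-ON, a peak of 4.7 in 1 SOX2-OFF library and none in CEpiLC. TCF7L1 had folds of 79.3, 46.8 and 144.8 in naive ESC and 6.52, 38.3 and 62.5 in SOX2-ON, a peak of 3.43 in 1 SOX2-OFF library and none in CEpiLC. Unlike the Klf2 site at +15.4 kb, this site had SOX2 folds in SOX2-ON within the range of naive ESC or just above it. TCF7L2, which kept the promoter in every condition, was found here as a strong peak in 3 naive ESC libraries, 1 SOX2-ON library and no low SOX2 library.

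Nearer to the gene, the site at +12.6 kb had strong TCF7L1 and β-catenin peaks in 5 of 6 high SOX2 libraries each and in no low one. At +56.8 kb SOX2 had folds of 11.9, 12.5 and 15.5 in naive ESC and no strong peak elsewhere, while TCF7L1 was also found in 2 SOX2-ON libraries. At +54.9 kb, a site chosen after its values were seen, strong peaks of β-catenin and TCF7L1 were found in 3 of 3 naive ESC libraries each and in no SOX2-ON library. In the full lists 1 SOX2-ON library had a β-catenin peak there.

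**Figure D3:**
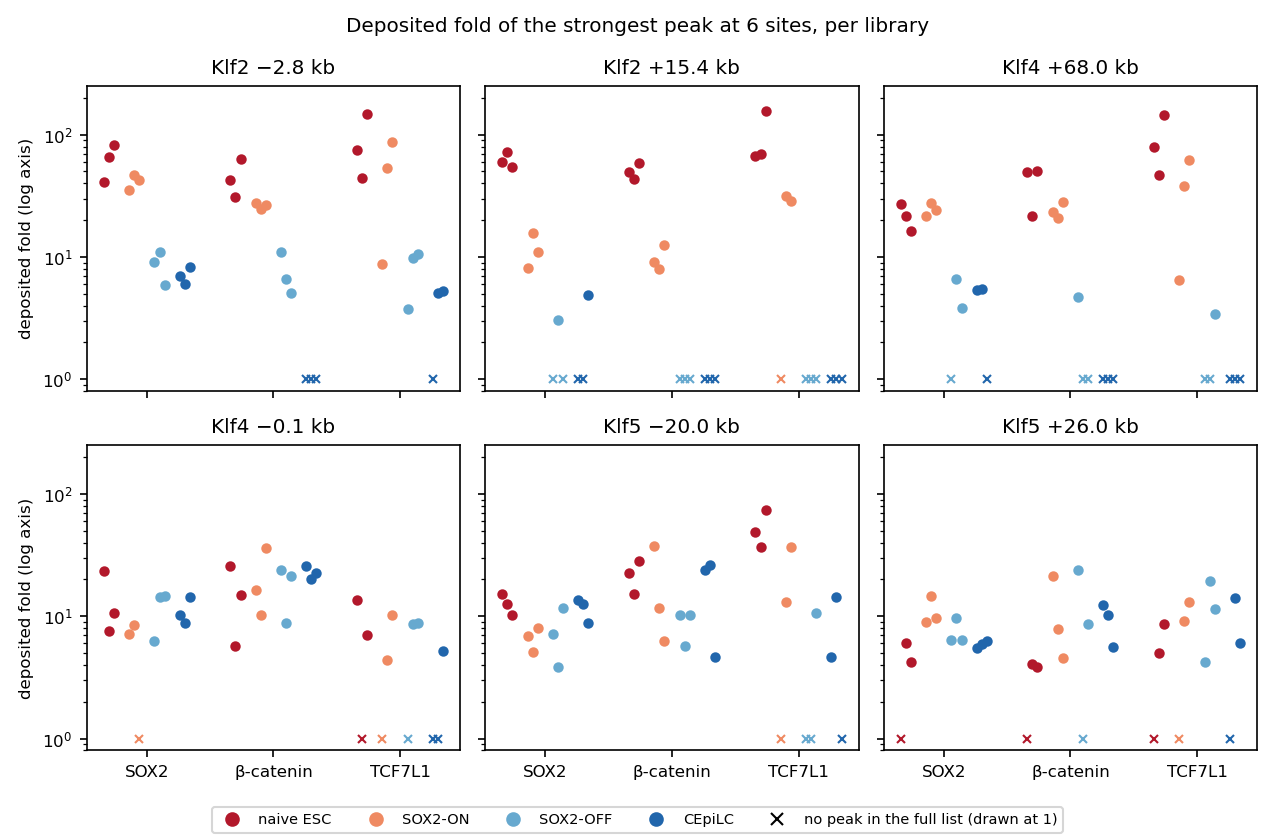
Deposited fold (y axis, log scale) of the strongest peak in each library at 6 sites, for SOX2, β-catenin and TCF7L1 (x axis), coloured by condition, with crosses drawn at 1 where the full list had no peak. At the Klf2 sites and at Klf4 +68.0 kb the naive ESC and SOX2-ON points lie above the others, with the exception of TCF7L1 in SOX2-ON replicate 1, which lies among the SOX2-OFF points at Klf2 −2.8 kb and has no peak at Klf2 +15.4 kb. At Klf4 −0.1 kb and Klf5 −20.0 kb SOX2 and β-catenin overlap between high and low SOX2.

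The 2 leading Klf5 sites were found in every condition for SOX2 and β-catenin. At +41.5 kb SOX2 had folds of 15.7, 11.2 and 11.2 in naive ESC, 9.02, 11.9 and 7.36 in SOX2-ON, 9.31, 13.7 and 15.1 in SOX2-OFF and 20.3, 20.4 and 19 in CEpiLC. The 3 CEpiLC values lay above all others, and how common this is among all sites was not computed. This site was a chain of summits 1200 bp long, so its targets need not share a position. LEF1 and TCF7L2 had strong peaks there in 3 of 3 CEpiLC libraries each, with LEF1 folds of 13.7, 21.6 and 10.2.

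At −20.0 kb β-catenin had folds of 22.4, 15.2 and 28.4 in naive ESC, 37.5, 11.6 and 6.29 in SOX2-ON, 10.2, 5.71 and 10.2 in SOX2-OFF and 23.7, 26.2 and 4.67 in CEpiLC, with overlap among all conditions except between naive ESC and SOX2-OFF. TCF7L1 was strongest in naive ESC, with 48.9, 37.2 and 74.2, against 36.6 at most elsewhere. The median summits of the 5 targets fell between −3 and 5 bp of the site's median, and the site held a TCF word and a SOX word.

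The Klf5 site at +26.0 kb was absent as a strong SOX2 and β-catenin peak in naive ESC and was found in the other conditions at both SOX2 levels. SOX2 had folds of 8.9, 14.7 and 9.73 in SOX2-ON, 6.37, 9.68 and 6.4 in SOX2-OFF and 5.46, 5.97 and 6.3 in CEpiLC. In the full naive ESC lists it had no peak in replicate 1 and folds of 6.03 and 4.25 in the others. The lowest fold of a strong SOX2 peak was 6.34 in naive ESC replicate 2 and 4.33, 5.92 and 5.32 in CEpiLC. The naive ESC fold of 6.03 was thus not strong, although it lay above the CEpiLC folds of 5.46 and 5.97, which were. LEF1 had strong peaks in 3 of 3 CEpiLC and 2 of 3 SOX2-OFF libraries against 1 of 3 SOX2-ON and 0 of 3 naive ESC libraries, which made it the site that went with low SOX2, and in the full lists SOX2-ON had 2. TCF7L1 was strong in a single naive ESC library and in 2 of 3 libraries of each other condition. In the full naive ESC lists β-catenin and TCF7L1 each had a peak in 2 of 3 libraries. The median SOX2 summit lay 141 bp from the site's median, and those of β-catenin, LEF1 and TCF7L1 between −22 and 3 bp, near the TCF word. The SOX2 summits ranged from −51 to 270 bp, so single libraries overlapped with the other targets.

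At +54.6 kb, a site chosen after its values were seen, the order of strong peaks was the opposite. Strong peaks of SOX2, β-catenin and TCF7L1 were each found in 3 of 3 naive ESC libraries, and the SOX2 peak had folds of 19.9, 10.2 and 6.14. SOX2-ON had 0, 1 and 0 such libraries for these targets in that order, SOX2-OFF none, and CEpiLC 1 for SOX2 only. In the full lists SOX2-ON had 2, 2 and 1 libraries with a peak, and CEpiLC had 1 for SOX2 and 1 for TCF7L1. This site held the octamer and a SOX word. The site at −22.9 kb, a chain of 701 bp found in 13 libraries, reached at most 2 of 3 libraries in any group.

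Strong peaks were then counted per library over each whole window, which tests the SOX2 level without choosing sites. The test permuted condition labels exactly within each cell line over 400 assignments, with a smallest two-sided p of 0.005, and was run for every protein-coding gene. β-catenin around Klf2 gave 5, 5 and 8 peaks in naive ESC, 5, 4 and 3 in SOX2-ON, 2, 1 and 1 in SOX2-OFF and 0 in each CEpiLC library, without overlap of high and low. The difference, averaged over the cell lines, was 4.33 peaks per library (exact permutation p = 0.005, adjusted p = 0.333 over all genes). It was 1.33 with lists of equal length and 1.83 with the 5000 strongest peaks (exact permutation p = 0.05 and 0.015). β-catenin around Klf4 gave 5, 4 and 6, then 4, 4 and 4, then 1, 1 and 3, and 2 in each CEpiLC library, a difference of 2.67 (exact permutation p = 0.005, adjusted p = 0.333), again without overlap. Over all 20956 genes with a β-catenin peak, 10.1% rose with high SOX2 at an unadjusted p of at most 0.05 and 2.01% fell. The share of genes without overlap of high and low is not given here, so the missing overlap cannot be set against it.

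SOX2 around Klf2 gave 7, 6 and 4 peaks in naive ESC, 3, 4 and 3 in SOX2-ON, 1, 2 and 3 in SOX2-OFF and 1, 2 and 3 in CEpiLC, a difference of 2.5 (exact permutation p = 0.015, adjusted p = 0.286). SOX2-ON and SOX2-OFF overlapped at 3 peaks, and within 150 kb the difference was 1.67 (exact permutation p = 0.08). SOX2 around Klf4 gave 4, 5 and 6, then 4, 4 and 2, then 1, 3 and 1, and 3, 3 and 2 in CEpiLC, a difference of 2 (exact permutation p = 0.02, adjusted p = 0.286). Over the genome 4.72% of genes rose for SOX2 and 8.36% fell. TCF7L1 around Klf2 gave 4, 5 and 5, then 4, 4 and 5, then 1, 1 and 1, and 0, 3 and 4 in CEpiLC, a difference of 2.83 (exact permutation p = 0.01, adjusted p = 0.555). Around Klf4 TCF7L1 gave 5, 5 and 4, then 5, 4 and 4, then 0, 3 and 3, and 0, 1 and 2 in CEpiLC, a difference of 3 (exact permutation p = 0.005, adjusted p = 0.555), where 6.68% of genes rose for TCF7L1 and 1.06% fell. The low replicate 1 value of 0 in CEpiLC comes from the list of 1628 peaks.

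None of these passed the adjustment over all genes, and neither did any other gene for any target in this permutation test, whose smallest adjusted p was 0.272. The shares above are counts at an unadjusted p of at most 0.05. A difference at least as large as that of Klf2 for β-catenin was seen in 0.639% of genes, and as that of Klf4 for TCF7L1 in 2.77%. LEF1 differed by 1.67 around Klf2 and 0.5 around Klf4 and TCF7L2 by 1 and 0.5, none of them called with the 20000 strongest peaks (exact permutation p of 0.095, 0.58, 0.2 and 0.62), where 3.03% and 1.79% of genes rose and fell for LEF1 and 3.96% and 0.217% for TCF7L2. Around Klf2, no CEpiLC library had a strong LEF1 peak, and the LEF1 difference was called at 1.33 with lists of equal length and with the 5000 strongest peaks (exact permutation p = 0.015 each) and at 2.17 with peaks ranked by p-value (exact permutation p = 0.04). Without the 10 lists under 20000 peaks, an alternative chosen after seeing the data, the β-catenin differences were 4.25 around Klf2 and 2.5 around Klf4. For β-catenin this left a single CEpiLC library, of 20453 peaks, so the wild-type part of these values is not replicated. The TCF7L1 differences around Klf2 and Klf4 were 2.33 and 2.83 (p = 0.02 and 0.01 by exact permutation over 100 assignments). Within 10 kb of the genes the SOX2 differences were 0.5 around Klf2 and 0 around Klf4 (exact permutation p = 0.2 and 1) and that of β-catenin around Klf4 was 0.833 (p = 0.08 by exact permutation). Peaks within 10 kb alone thus did not give those calls, although the Klf2 site at −7.8 kb lies within that distance. Counts of all deposited peaks ended the calls for SOX2 and TCF7L1 around both genes and for β-catenin around Klf4.

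Within a single cell line 3 libraries stand against 3, so the smallest p of the exact permutation test is 0.1. In the TetON pair, which differs only in doxycycline, β-catenin around Klf2 differed by 2.67 peaks and around Klf4 by 2.33, both at that limit, and in the wild-type pair by 6 and 3. With lists of equal length these differences were 0.333 and 1.67 in the TetON pair and 2.33 and 1.33 in the wild-type pair. SOX2 differed in the TetON pair by 1.33 around Klf2 (exact permutation p = 0.3) and 1.67 around Klf4 (exact permutation p = 0.2). TCF7L1 differed there by 3.33 and 2.33, both at the limit. The difference between the cell lines was tested for every target and gene by permuting the line labels within each SOX2 level. None of the 15 tests passed, and the smallest exact permutation p was 0.14.

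Klf5 gave no call for any target with the 20000 strongest peaks. β-catenin had 7, 5 and 9 peaks in naive ESC, 8, 9 and 2 in SOX2-ON, 4, 2 and 5 in SOX2-OFF and 5, 4 and 5 in CEpiLC, a difference of 2.5 (exact permutation p = 0.115, adjusted p = 0.529) with overlap in both lines. Among the 5000 strongest peaks of each list it was −0.333 (exact permutation p = 0.74), and within 150 kb it was 4 (exact permutation p = 0.015). SOX2 had 4, 10 and 9, then 5, 5 and 3, then 3, 5 and 5, and 5, 7 and 4, a difference of 1.17 (exact permutation p = 0.42, adjusted p = 0.878). LEF1 was the target with the opposite sign, with 4, 5 and 2 in naive ESC, 2, 3 and 2 in SOX2-ON, 3, 2 and 5 in SOX2-OFF and 3, 7 and 7 in CEpiLC, a difference of −1.5 (exact permutation p = 0.165, adjusted p = 1). It was called at the same size, −1.5, with lists of equal length and with the 5000 strongest peaks (exact permutation p = 0.05 each), and turned to 0.5 within 150 kb (exact permutation p = 0.665). It was not tested whether Klf5 differs from Klf2 or Klf4.

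**Figure D4:**
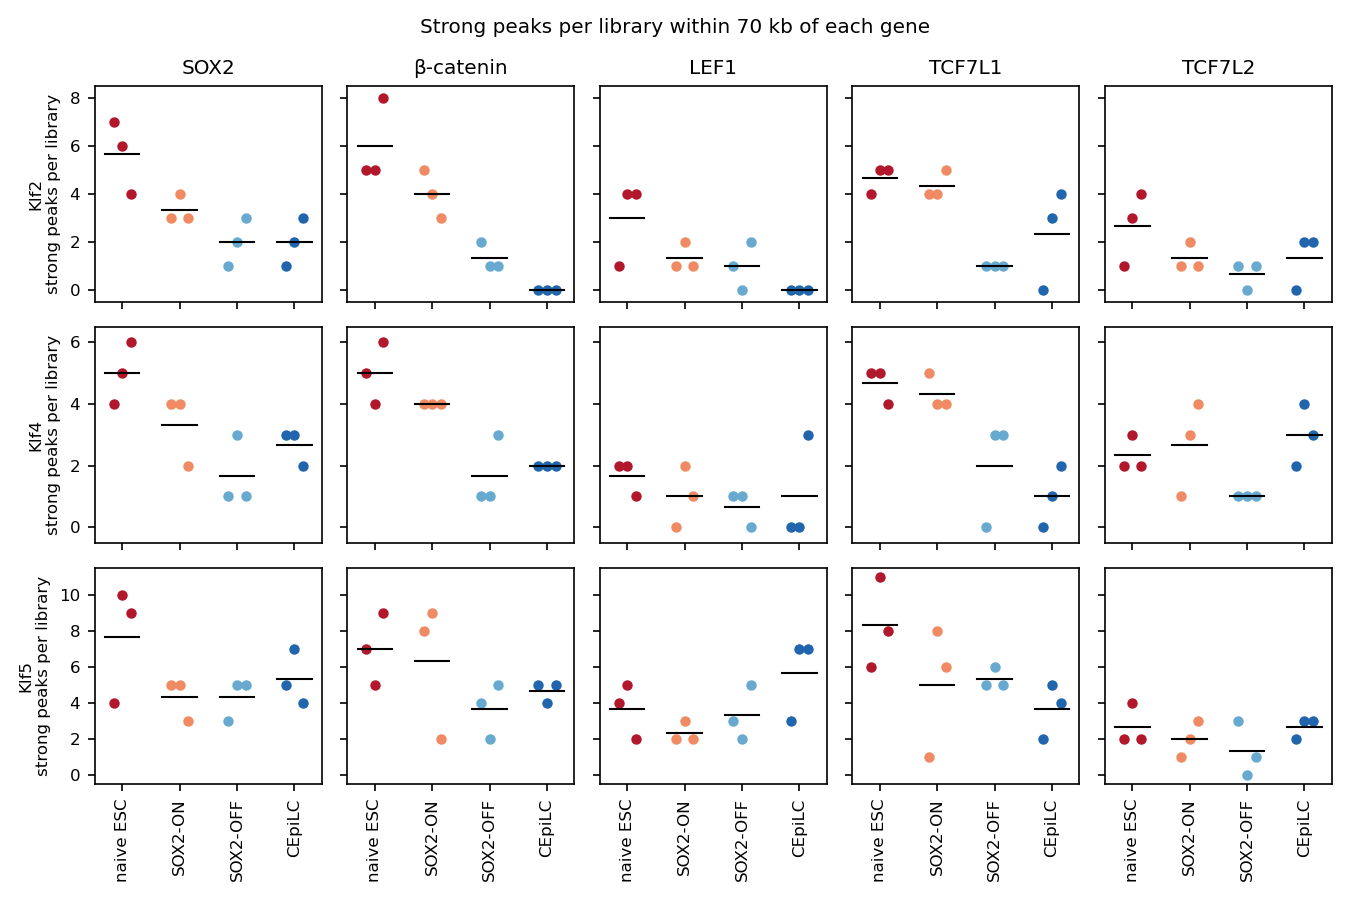
Strong peaks per library (y axis) within 70 kb of each gene (rows) for each target (columns) by condition (x axis), with 1 point per library and a line at the mean of 3. For β-catenin around Klf2 and Klf4 the naive ESC and SOX2-ON points lie above all low SOX2 points, and around Klf5 the conditions overlap.

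Other genes of the same network and family set these counts in context. Of 18 genes of the naive pluripotency network, 8 rose with high SOX2 for β-catenin, 4 for SOX2, 6 for TCF7L1, 2 for TCF7L2 and 0 for LEF1, and none fell for any target. Over all genes 10.1%, 4.72%, 6.68%, 3.96% and 3.03% rose for these targets in that order. Nanog, a core factor of the naive state, had 3.17 more SOX2 peaks (exact permutation p = 0.005) and 4.33 more β-catenin peaks (p = 0.005 by exact permutation). The median difference of the list was 1.83 for β-catenin (0.333 over all genes), 1.17 for SOX2 (−0.167 over all genes) and 2.08 for TCF7L1 (0.167 over all genes). Of the 14 other KLF genes, 3 rose and 1 fell for β-catenin, 1 rose and 1 fell for SOX2, 2 rose for TCF7L1 and 1 each for LEF1 and TCF7L2, where 1 gene of 14 is near the shares over all genes just given. Their medians were 0.667 for β-catenin, −0.75 for SOX2 and 1.08 for TCF7L1. Klf9 had the largest difference of them for β-catenin, 5.67 peaks (exact permutation p = 0.005). Of 12 caudal epiblast genes, 7 fell in SOX2 peaks at high SOX2, 4 genes fell in β-catenin peaks and 6 genes in LEF1 peaks, where 8.36%, 2.01% and 1.79% of all genes fell. Neighbouring genes share peaks and are not independent counts, such as Hoxb8 and Hoxb9, which are among both the 7 and the 6. T, which encodes Brachyury, had 7.33 fewer SOX2 peaks at high SOX2, 4.5 against 11.8 (exact permutation p = 0.005). Cdx4 was the exception in that list, with 2.17 more β-catenin peaks at high SOX2 (exact permutation p = 0.01), and it also rose for TCF7L1. The list medians were −2.92 for SOX2, −2.75 for β-catenin and −1 for TCF7L1.

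**Figure D5:**
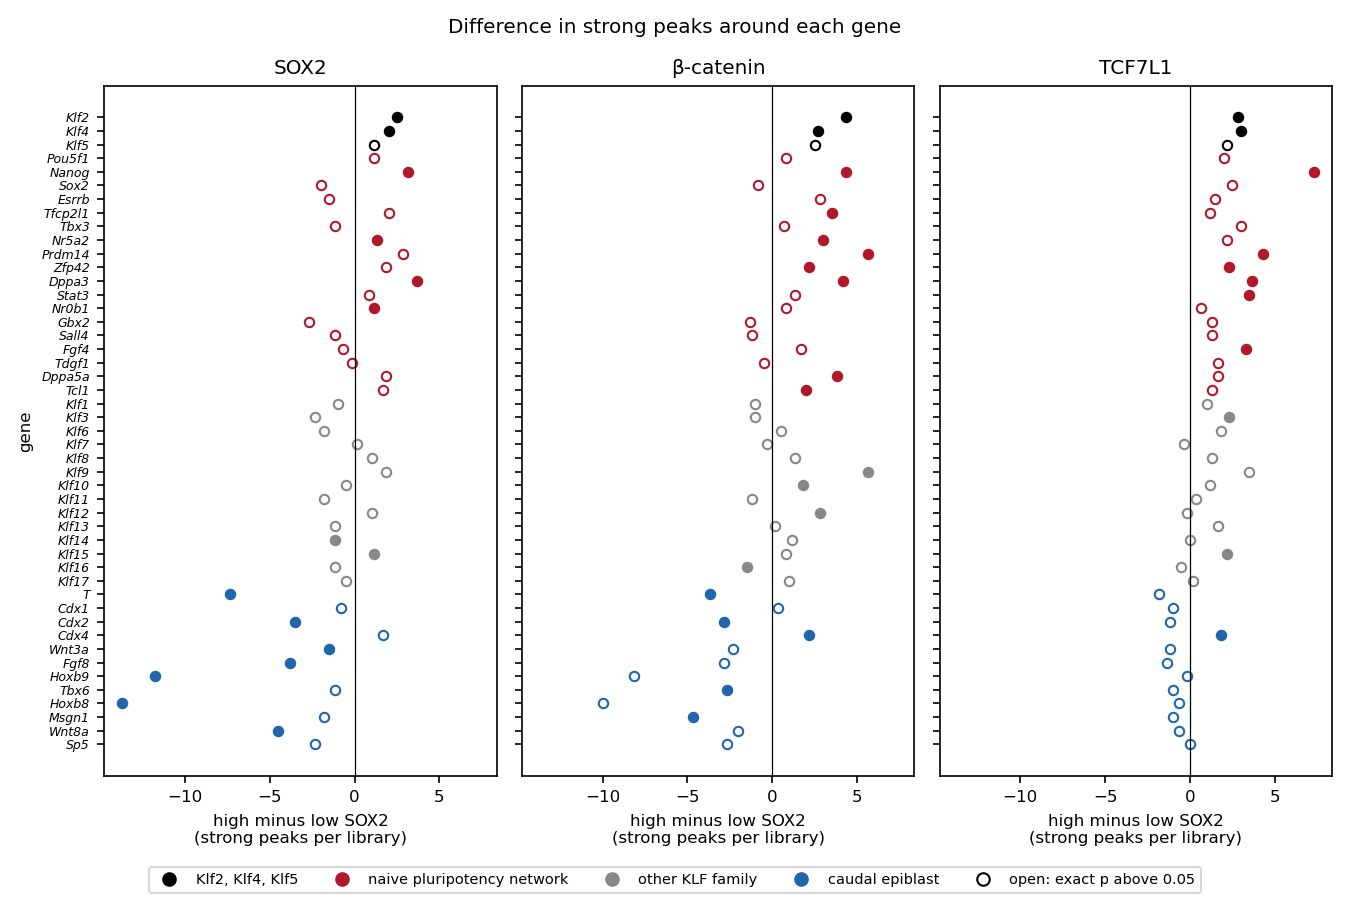
Difference between high and low SOX2 in strong peaks per library (x axis) around each gene (y axis) for SOX2, β-catenin and TCF7L1, filled where the exact permutation p was at most 0.05. Klf2 and Klf4 are filled in all 3 panels and Klf5 in none, and the caudal genes lie mostly to the left for SOX2.

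Genes whose window counts ran most like those of each member over the 60 libraries, after removing each target's mean, were Oxr1, Pdss1 and Bnc2 for Klf2 (Pearson r of 0.796, 0.765 and 0.75), Nfib, Prdm1 and Rtel1 for Klf4 (0.753, 0.71 and 0.707) and Zfp57 and Mog for Klf5 (0.712 and 0.692). They were among the highest of 16626 genes, the points share libraries and list lengths, and the neighbours Zfp57 and Mog share most of their windows.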

How the data were processed

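ChIP-seq peak lists of 60 libraries were analysed; the 4 input samples were not used here. According to the study's methods and the labels, the authors aligned 76 bp single-end reads to mm10 with BWA in an nf-core pipeline and called narrow peaks per library with MACS2 at a q-value of 0.05. The input paired with each library is not given in the sources used here. The deposited values per peak were the fold (a ratio of signal to local background) and −log10 p-value and q-value; the authors did not deposit read counts in the lists, so depth is unknown, no interval for counting error is given, and list length limits precision. The study tested read counts, which could not be repeated from these lists.

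Strong peaks were the 20000 with the highest deposited fold. Sites joined summits at most 250 bp apart, and folds came from the strongest peak of the full list within 125 bp of a site. Windows of all protein-coding genes of GENCODE vM21 (70 kb flanks) were tested by exact permutation within cell line and adjusted by the Benjamini-Hochberg method per target over all genes; a call was an unadjusted p of at most 0.05. Neighbouring windows share peaks. Named sites were, per window, the 4 in most libraries and any that followed the SOX2 level for SOX2 or β-catenin; sequences are those of the leading site and up to 2 further sites following the level. The members, lists and rules were chosen with earlier results of these data known. Genes named as most alike were, for each member, the 3 with the highest correlation over 1 Mb away; 1 of them is not reported here. The code was tested on simulated counts. Python 3.11.15, numpy 2.4.6, pandas 2.3.3 and samtools 1.23.1 were used. Alternatives were other list lengths, rankings, window sizes, linking distances, motif widths, a replicate block and leaving out replicates.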

Additional observations from a re-analysis of the deposited data

How the results depend on the processing

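Differences below are high minus low SOX2 in strong peaks per library, with exact permutation p. The call for β-catenin around Klf2 held under all 10 alternatives (p from 0.005 to 0.05), at 1.33 with equal lists and 1.83 with the 5000 strongest peaks. Among these 10, leaving out the lists under 20000 peaks kept a single CEpiLC library. With all deposited peaks the differences (exact permutation p in brackets) were 21.7 (p = 0.09) for SOX2 around Klf2, 17.2 (p = 0.11) for SOX2 around Klf4, 10.2 (p = 0.115) for β-catenin around Klf4 and 20.3 (p = 0.01) for β-catenin around Klf5. Within 10 kb they were, with exact permutation p, 0.5 (p = 0.2), 0 (p = 1) and 0.833 (p = 0.08) for the first 3 of these and −0.5 for SOX2 around Klf5. Within 150 kb they were, with exact permutation p, 1.67 (p = 0.08) for SOX2 around Klf2 and 4 (p = 0.015) for β-catenin around Klf5. Among the 5000 strongest peaks they were −1.17 for SOX2 and −0.333 for β-catenin around Klf5, the latter being −0.167 with lists of equal length. TCF7L1 lost its call with all peaks around both genes (exact permutation p = 0.41 and 0.555), and around Klf4 also within 10 kb and at a −log10 q of at least 5. The causes were not tested.

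Replicate numbers did not pair the libraries: correlations of same-numbered libraries' deviations lay between −0.103 and 0.138, with 2 of 18 over 0.1 for TCF7L1 and none for the other targets. With the replicate number as a block, SOX2 around Klf2 kept its difference of 2.5 at p = 0.0625 (exact permutation, smallest possible 0.0312), and the block ended no other call.

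Leaving out a replicate gave 1.75 to 3.5 for SOX2 around Klf2, 1.75 to 2.25 for SOX2 and 2.5 to 2.75 for β-catenin around Klf4, and 1.75 to 3.5 for β-catenin around Klf5, as values with no test. Sites with high SOX2 then numbered 1 to 2 for SOX2 and 2 to 3 for β-catenin, and for β-catenin 7 with all deposited peaks and 1 with equal lists.

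Other differences also turned sign. For LEF1 they were 26.5 (all peaks) and 0.5 (150 kb) around Klf5, and −0.333 (10 kb) and −0.417 (without short lists) around Klf4. For TCF7L1 around Klf5 they were −0.5 (equal lists) and −0.333 (5000 strongest). For TCF7L2 they were −0.167 around Klf4 (10 kb), and around Klf5 −1.33 (all peaks) and −0.167 under 4 other settings. The difference between the cell lines turned to 14.3 and 0.667 for TCF7L1 (all peaks, equal lists) and −15.3 for TCF7L2 (all peaks) around Klf2, to −0.333 for β-catenin around Klf4 (equal lists), and to 12.3 for LEF1 (all peaks) and −0.333 for TCF7L1 (equal lists) around Klf5. Within the TetON line, all peaks gave −1.67 for SOX2 and −0.333 for TCF7L1 around Klf2, −1.67 for TCF7L1 around Klf4 and 20.3 for LEF1 around Klf5. Within the wild-type line, all peaks gave −7.33 for TCF7L2 around Klf2 and 32.7 for LEF1 around Klf5, and equal lists gave 0.667 for TCF7L2 around Klf4 and −0.333 for β-catenin and −0.667 for TCF7L1 around Klf5. The lists hold no read counts, so a missing peak at this depth is not a measured absence of binding.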
